A study of Mus musculus with 12 samples.

Results

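The replication-dependent histone genes are the mouse genes that supply most of the histone protein for newly made DNA. They were chosen here by symbol: protein-coding RefSeq genes named H2ac, H2bc, H3c or H4c followed by digits, and H1f1 to H1f6, with the older symbols beginning Hist1h to Hist4h also allowed. Of the 21887 genes that RefSeq lists as protein-coding on the autosomes, X and Y (GRCm38.p6, on mm10 coordinates), 63 met this rule, and all 63 bore the newer names. They comprised 6 H1, 17 H2A, 16 H2B, 12 H3 and 12 H4 genes. The choice used no measured value.

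These genes are short, lack introns in their typical form and lie in clusters. Their messenger RNAs end in a conserved stem-loop, bound by the protein SLBP, in place of a poly(A) tail, and their transcription rises as cells enter S phase. The pre-mRNA is cleaved behind the stem-loop by the nuclease encoded by Cpsf3. Ints11 encodes the related nuclease of the Integrator complex, which cleaves nascent small nuclear and other RNAs. H3K4me3 is a histone mark found at active or poised promoters, and H3K27me3 is the mark laid down by Polycomb complexes at silenced genes. Dividing blood progenitors are known to transcribe histone genes.

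The study profiled both marks by chromatin immunoprecipitation with sequencing in bone marrow cells sorted as Lin- cKit+, the fraction in which blood stem and progenitor cells are found. The knockout (KO) mice were C57BL/6 animals labelled Mx1Cre+ Ints11 flox/fox, spelled so in the labels, and the wild-type (WT) animals were their littermates on the same strain. Mice of either genotype were taken 4 days after poly(I:C), an inducer of interferon that switches on the Mx1 promoter. That promoter acts in any cell that responds to interferon, so deletion is not limited to blood cells. Age, sex and whether the littermates carried Mx1Cre are not given in the sources used here. There were 2 KO libraries (KO_399 and KO_401) and 2 WT libraries (WT_407 and WT_409) per mark, and their numbers are read as mice. No list measures RNA or the deletion of Ints11, so no label could be checked against it.

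Each of the 8 libraries had its own list of peaks, and every listed peak had a fold over background above 5. The H3K4me3 lists held 27676 and 25090 peaks in KO_399 and KO_401, against 25145 and 26279 in WT_407 and WT_409. They covered 44.5 and 36.7 Mb in KO, against 37.0 and 38.6 Mb in WT. The H3K27me3 lists held 6542 and 7653 peaks in KO, against 11930 and 9838 in WT, and covered 15.2 and 23.1 Mb in KO, against 34.5 and 31.5 Mb in WT. H3K4me3 lay within 5 kb of Kit, Cd34, Flt3, Gata2 and Meis1, marker genes of the sorted population, in every library. WT_409 stood apart in markers of other cells: the B lymphoid gene Il7r and the erythroid genes Hbb-bs, Hbb-bt and Slc4a1 had H3K4me3 in that library alone. The measure used throughout is the number of bases covered by peaks within 5 kb of either end of a gene. In such bulk lists, a mark in fewer cells and less of the mark per cell cannot be told apart.

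The 63 genes fell into 3 clusters. The chromosome 3 cluster, chr3:96219885-96270192, spanned 50.3 kb and held 10 of them, with no other protein-coding gene. The first chromosome 13 cluster, chr13:21715711-22043658, spanned 328 kb and held 22, together with 31 tRNA genes and 4 other coding genes. The second chromosome 13 cluster, chr13:23531044-23934913, spanned 404 kb and held 31, including 5 of the 6 H1 genes. Between the chromosome 13 clusters lay 1.49 Mb with 41 coding genes, 36 of them Vmn1r pheromone receptor genes.

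Promoter sequences from RefSeq (GRCm38.p6) matched 58 of the 63 genes. The stretches below are the 250 bases before the annotated start. They are shown for what their genes' H3K4me3 did. H2bc11 and H4c9 are neighbours among the 5 genes with the largest difference between KO and WT. H2ac1 and H1f6 are known from testis, and their starts had no H3K4me3 peak. Capitals mark matches on either strand to the CCAAT box, to the letters TATAAA of the TATA box, and to the octamer, which reads ATTTGCAT. These are known promoter elements of histone genes. The H2bc11 stretch, chr13:22042948-22043197 (plus strand), is also the promoter of its divergent partner H2ac11. The H4c9 stretch is chr13:22041363-22041612 (minus strand), that of H2ac1 is chr13:23934187-23934436 (plus strand), and that of H1f6 is chr13:23695561-23695810 (plus strand).
H2bc11: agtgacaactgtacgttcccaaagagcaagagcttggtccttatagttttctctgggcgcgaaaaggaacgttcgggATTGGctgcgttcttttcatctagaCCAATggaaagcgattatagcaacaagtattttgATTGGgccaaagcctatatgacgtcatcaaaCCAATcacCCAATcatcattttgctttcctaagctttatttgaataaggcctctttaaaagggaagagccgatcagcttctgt
H4c9: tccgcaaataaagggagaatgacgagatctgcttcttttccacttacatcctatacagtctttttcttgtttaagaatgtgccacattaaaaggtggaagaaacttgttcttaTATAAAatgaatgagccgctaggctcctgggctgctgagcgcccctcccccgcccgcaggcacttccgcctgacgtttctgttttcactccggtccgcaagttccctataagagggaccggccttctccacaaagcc
H2ac1: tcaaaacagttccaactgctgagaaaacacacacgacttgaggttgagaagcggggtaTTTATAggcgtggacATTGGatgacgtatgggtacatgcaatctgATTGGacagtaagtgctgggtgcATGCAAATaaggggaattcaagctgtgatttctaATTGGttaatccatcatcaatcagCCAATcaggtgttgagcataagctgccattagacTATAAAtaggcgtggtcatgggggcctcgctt
H1f6: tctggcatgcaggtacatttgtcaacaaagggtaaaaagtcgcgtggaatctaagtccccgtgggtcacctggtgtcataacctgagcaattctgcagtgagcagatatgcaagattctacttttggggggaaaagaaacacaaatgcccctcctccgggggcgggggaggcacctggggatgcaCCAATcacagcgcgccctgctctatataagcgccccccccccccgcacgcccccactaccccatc

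The H2bc11 stretch held 5 matches to CCAAT, whereas that of H4c9 held none and 1 match to TATAAA. The stretch of H2ac1, without a peak at its start, held 4 matches to CCAAT, 2 to TATAAA and 1 to ATTTGCAT. That of H1f6 held 1 match to CCAAT. Counted in windows of 300 bases, 250 before the start and 50 after it, on both strands, CCAAT occurred in 50 of 58 histone promoters (86.2%), against 39% of all 17492 promoters. It was found in 6 of 6 H1, 17 of 17 H2A, 14 of 14 H2B and 10 of 10 H3 windows, but in 3 of 11 H4 windows. TATAAA, the core of the TATA box, occurred in 34 of 58 (58.6%), against 13.3% of all promoters, and in 8 of 11 H4 windows. ATTTGCAT, the octamer, known best from the H2B genes, occurred in 12 of 58 (20.7%), against 1.71%. These 12 windows were 6 of H2A and 6 of H2B genes. Windows of divergent H2A and H2B partners overlap, so a single match can count for both. A match describes letters and is not evidence of binding.

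H3K4me3 was present at every cluster. All 63 genes had an H3K4me3 peak within 5 kb in each of the 4 libraries, where 64.3% of all protein-coding genes did. A peak lay on the gene itself at 61 of the 63 genes in each library, and covered the whole gene at 55 and 55 in KO_399 and KO_401, against 54 and 55 in WT_407 and WT_409. The genes not touched in any library were H1f6 and H2ac1, both known from testis. H2bc1 and the H2B genes with a long annotated span, such as H2bc6 with 37455 bp, were touched but not covered from end to end, as was H3c15 in WT_407 alone. Several members can lie under the same peak and inside each other's windows, so their values are not independent.

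The mark was wide. The median of the 63 genes was 6166 and 5381 covered bases in KO_399 and KO_401, against 4765 and 5383 in WT_407 and WT_409. For all genes with the mark in any library, the medians were 2743 and 2351 bases in KO, against 2378 and 2413 in WT. Ranked by their mean among the genes with the mark in all 4 libraries, the 63 genes had a median percentile of 87.0, with a range of 0.316 to 97.9. Windows of clustered genes take in the peaks of neighbours, which adds to these values.

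The individual peaks on histone genes, each measured at its own width, were also wide. Most of them held neighbouring histone genes together, as described below, so their width is not that of a lone promoter. The peaks on histone genes numbered 32 and 33 in KO, against 35 and 34 in WT. Their median width was 4365 and 3662 bp in KO_399 and KO_401, against 3099 and 3596.5 bp in WT_407 and WT_409. The median of the whole list was 1201 and 1124 bp in KO, against 1145 and 1124 bp in WT. The whole list takes in every peak, at promoters or elsewhere, and was not limited to promoter peaks. Within its own list, the width of the histone peaks had a median percentile of 95.7 and 94.6 in KO, and of 91.2 and 94.2 in WT. Their rank by the authors' −log10 q was lower, with a median percentile of 66.9 and 64.8 in KO and of 64.8 and 67.9 in WT. In these lists the histone peaks thus ranked higher by width than by −log10 q.

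Most peaks held more than 1 histone gene. A peak with a single member was seen 11 and 13 times in KO, against 17 and 14 times in WT, and 6 peaks held 3 members in each library. The widest grouping was the same in all 4 libraries: H2ac8, H2bc8, H2bc7, H2ac7 and H3c4 lay under a single peak of 7717 and 7796 bp in KO, against 7380 and 7739 bp in WT. Of 60 pairs of adjacent members, 30 and 29 shared a peak in KO_399 and KO_401, against 27 and 29 in WT_407 and WT_409. The same 27 pairs shared a peak in all 4 libraries and 30 pairs in none. No pair was joined in both KO and neither WT library, or in both WT and neither KO library. The 3 pairs that differed turned on single libraries. H3c15 with H2ac19 and H4c4 with H2bc6 were split in WT_407 alone, and H1f5 with H3c11 were joined in KO_399 alone. The gap between genes had a median of 632 bp where they were joined in all 4 libraries (longest 2396 bp) and of 5423 bp where they were joined in none (shortest 280 bp).

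H2A and H2B genes often share a promoter and are transcribed away from each other. Among neighbours whose strands were both known, 9 pairs had divergent starts under 500 bases apart. Each paired an H2A with an H2B gene, at 163 to 280 bases between starts. A single H3K4me3 peak held both genes in all 4 libraries at 8 of the 9. The exception was H2bc1 with H2ac1, the testis pair. H2ac20 with H2bc21 and H2ac6 with H2bc4 could not be assessed, since the strand of their H2B gene was not matched.

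At the start sites, the mark reached farther upstream than it did at genes at large. Of the 58 genes with a known start, a peak covered the start of 55 and 55 in KO, against 54 and 55 in WT. H1f6, H2bc1 and H2ac1 lacked it in all 4 libraries and H3c15 in WT_407 alone. That peak reached a median of 2082 and 1965 bases upstream in KO, against 1769 and 1994 in WT. For all genes with a covered start the medians were 748 and 684 bases in KO, against 674 and 720.5 in WT. Downstream, histone genes had 2181 and 1887 bases in KO, against 1602 and 1837 in WT. All genes had 1413 and 1264 bases downstream in KO, against 1245 and 1259.5 in WT. Upstream and downstream extents were of like size at histone genes, while at all genes the downstream side was the longer. The upstream side of a histone gene often holds another histone gene, so the extent is not that of a lone promoter. The summit lay a median of 183 and 196 bases downstream of the start in KO, against 192.5 and 159 in WT, beside 192 and 194 in KO and 191 and 186 in WT for all genes. Taken without its sign, the distance was larger at histone genes, with a median of 426 and 423 bases in KO and 420.0 and 410.0 in WT, beside 238 and 231 in KO and 230.0 and 225 in WT for all genes.

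**Figure D1:**
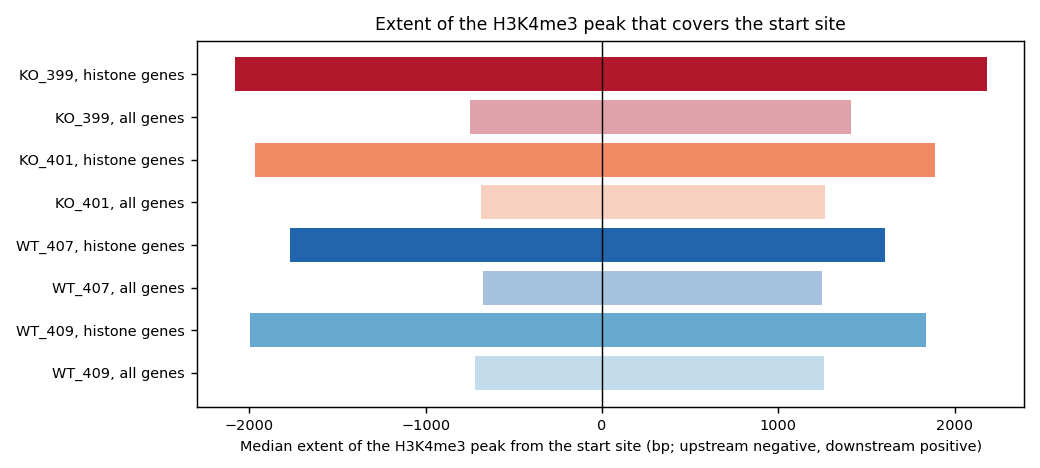
Median distance in bp that the H3K4me3 peak over the start site reached upstream (negative) and downstream (positive), per library, for histone genes (dark bars) and for all genes with a covered start (pale bars). In each library the dark bar was longer on both sides, with 1769 to 2082 bases upstream for histone genes, against 674 to 748 for all genes.

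The comparison of KO with WT asked whether loss of Ints11 went with a change in the marks at these genes. H3K4me3 covered slightly more bases per histone gene in KO, by about the same percentage as at all genes, and the KO and WT libraries overlapped. The mean per gene was 5931 and 5335 bases in KO_399 and KO_401, against 4810 and 5443 in WT_407 and WT_409. KO_399 was highest and WT_407 lowest, with KO_401 and WT_409 close together between them. The mean was 5633 ± 421 bases in KO and 5126 ± 447 in WT (SD, n = 2 each), or 109.9% of WT (two-sided exact permutation p = 0.667). With 2 libraries per genotype this test cannot give a p below 0.333. Over all protein-coding genes the mean was 2153 ± 263 bases in KO and 2003 ± 45.3 in WT (SD, n = 2 each), or 107.5% of WT (exact permutation p = 1). The all-gene mean takes in genes without the mark. By library it was 2339 and 1967 bases in KO_399 and KO_401, against 1971 and 2035 in WT_407 and WT_409. The difference of 507 bases per histone gene moved with single libraries. It was 209 without KO_399, 805 without KO_401, 190.5 without WT_407 and 823 without WT_409. The median gene-wise ratio of KO to WT was 109% for the histone genes and 105% for all genes with the mark in WT.

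By gene, 24 of 63 (38.1%) had more covered bases in both KO libraries than in both WT libraries, where 22.1% of genes with the mark did. None of the 63 had fewer in both KO libraries, where 3.63% of genes did, and at 39 genes the genotypes overlapped. The KO mean was above the WT mean at 60 of 63 genes, and at 74.1% of all genes with the mark. The exceptions were H4c14, H2ac8 and H2bc8, with differences of -2.5, -92 and -92 bases. The highest and the lowest library were mostly the same from gene to gene. KO_399 was highest at 52 of 63 genes (82.5%), where it was highest at 72.4% of genes with the mark, and WT_407 was lowest at 57 (90.5%), where it was lowest at 34%. Between the other libraries, KO_401 exceeded WT_409 at 30 of 63 genes (47.6%), against 39% of all genes with the mark. Without KO_401 the count of 24 was 54, where 75.1% of genes with the mark were higher, and without WT_409 it was 57, where 44% were. Without KO_399 it was 28, where 23.5% were higher, and without WT_407 it was 24, where 37.7% were. Lower in KO were 4 of the 63 without KO_399 (35.1% of genes with the mark), 2 without KO_401 (4.44%), 3 without WT_407 (15.4%) and 2 without WT_409 (11.6%). The 24 genes lay in 6 of the 13 stretches formed by joining overlapping windows, and a single stretch held up to 16 members.

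KO_399 also covered the most bases across its whole list, and the part of this list-wide coverage in the result was not tested. With peaks removed from the weakest up, until all 4 lists covered the same length, the difference was 484 bases and the count remained 24 genes. Only whole weak peaks were removed and the rest kept their full width. The step therefore cannot show what wider peaks in KO_399 contributed. Markers of stromal and endothelial cells had summed H3K4me3 of 11223 and 7185 bases in KO, against 4553 and 5055 in WT, over 5 genes. Of these, Pecam1, with 6769 and 3564 bases in KO, against 2481 and 2415 in WT, and Pdgfrb, with 1864 and 1844 in KO, against 464 and 499 in WT, did not overlap. The other 3 overlapped between genotypes. Col1a1 had 1894 and 1520 bases in KO, against 599 and 1908 in WT, and Cdh5 had 473 and 257 in KO, against 336 and 233 in WT. Col1a2 had 223 and 0 bases in KO, against 673 and 0 in WT. Among markers of the sorted population, Cd34 had 3402 and 2480 bases in KO, against 1694 and 1991 in WT, and Gata2 had 10923 and 9598 in KO, against 6872 and 6373 in WT, while Kit, Flt3 and Meis1 overlapped between genotypes. The part of either in the histone values was not tested.

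**Figure D2:**
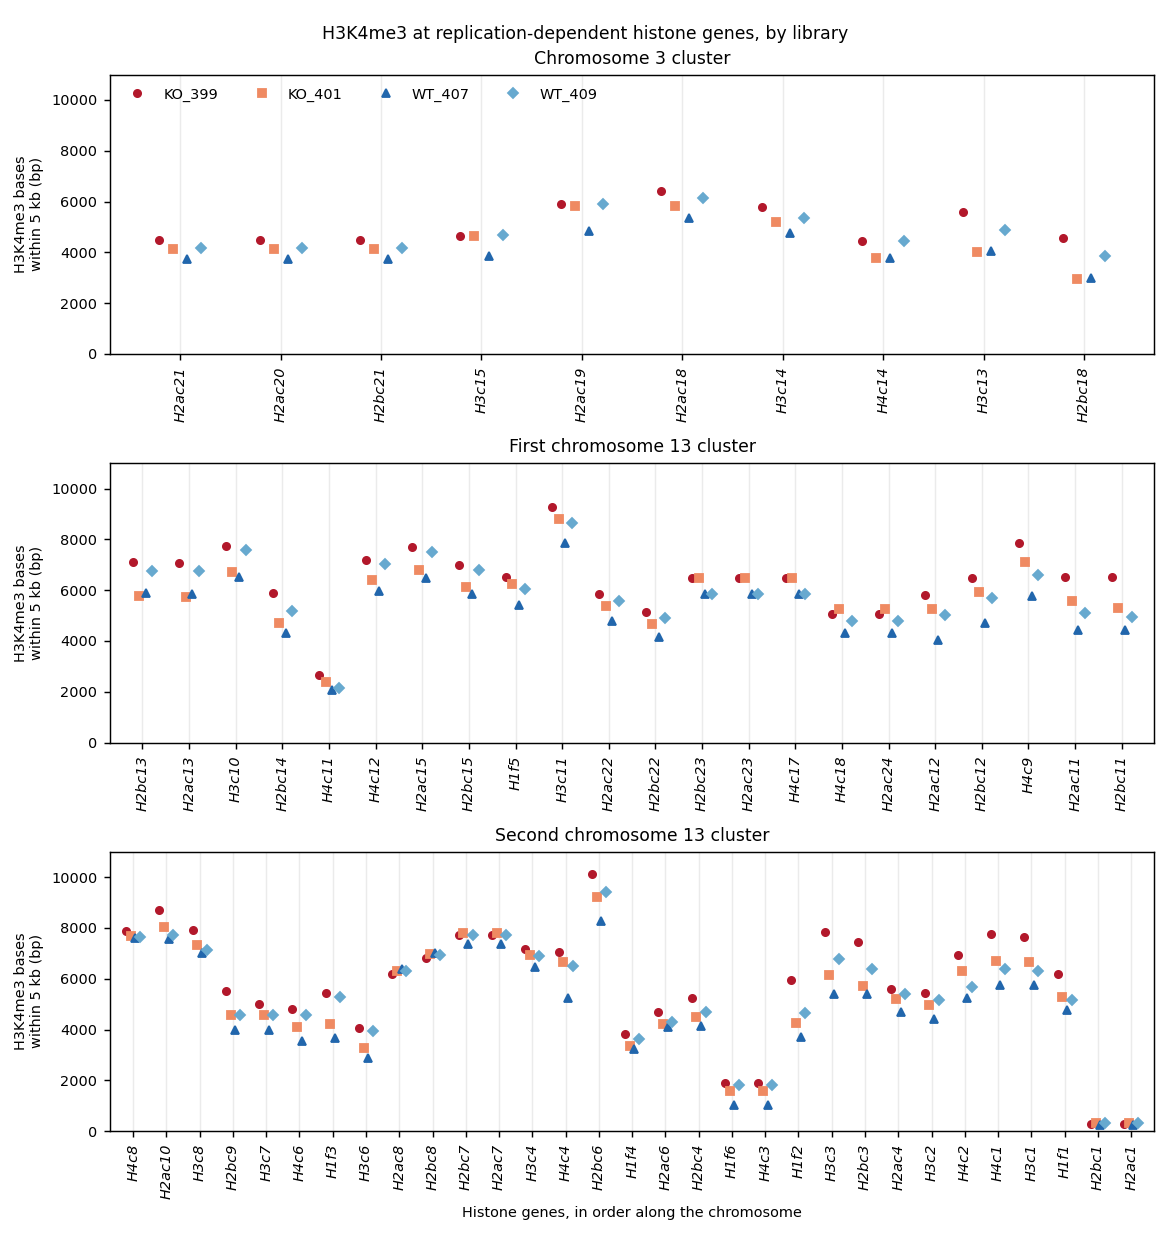
H3K4me3-covered bases within 5 kb of each of the 63 histone genes (vertical axis, bp), in order along each cluster, with a point per library. KO_399 was highest at 52 genes and WT_407 lowest at 57, while H2bc1 and H2ac1 at the right end of the second chromosome 13 cluster had 258 to 329 bases.

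The clusters gave the same order of libraries. In the chromosome 3 cluster the mean per gene was 5072.5 and 4462 bases in KO, against 4087.5 and 4781 in WT. In the first chromosome 13 cluster it was 6448 and 5858 bases in KO, against 5212 and 5882 in WT. In the second it was 5841 and 5246 bases in KO, against 4759 and 5344 in WT. KO_401 lay below WT_409 in each cluster, so the genotypes overlapped in all of them. None of the 10 genes on chromosome 3 was higher in both KO libraries, against 13 of 22 in the first and 11 of 31 in the second chromosome 13 cluster, and 22.1% of all genes with the mark. Whether the clusters differed in this was not tested. On chromosome 3, without WT_407 the KO mean was below the WT mean, with a difference of -13.8 bases per gene.

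By histone type, the H4 genes alone separated the genotypes. Their mean was 5835.5 and 5369.9 bases in KO_399 and KO_401, against 4681 and 5289 in WT_407 and WT_409. This gave 5603 ± 329 in KO and 4985 ± 430.3 in WT (SD, n = 2 each, exact permutation p = 0.333, adjusted 0.667 over 8 groups). The separation was lost with a window of 10 kb (exact permutation p = 0.667, n = 2 each), and the difference of 618 bases was 385 without KO_399 and 313 without WT_407. The margin between KO_401 and WT_409 was small beside the spread within either genotype, and 8 of 12 H4 genes were higher in both KO libraries. The H1 linker histones averaged 4964 and 4159 bases in KO, against 3640 and 4421 in WT. Among the types, the H3 genes had the most covered bases, with 6511 and 5770 in KO, against 5242 and 5991 in WT. Their windows take in peaks of neighbours, and peak width was not compared by type. The H2A genes averaged 5821 and 5428 bases in KO, against 4929 and 5457 in WT, and the H2B genes 6048 and 5325 in KO, against 4897 and 5514 in WT. The exact permutation p was 0.667 for the 4 types other than H4 (n = 2 each). Higher in both KO libraries were 2 of 6 H1, 5 of 17 H2A, 4 of 16 H2B and 5 of 12 H3 genes, where 22.1% of all genes with the mark were.

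**Figure D3:**
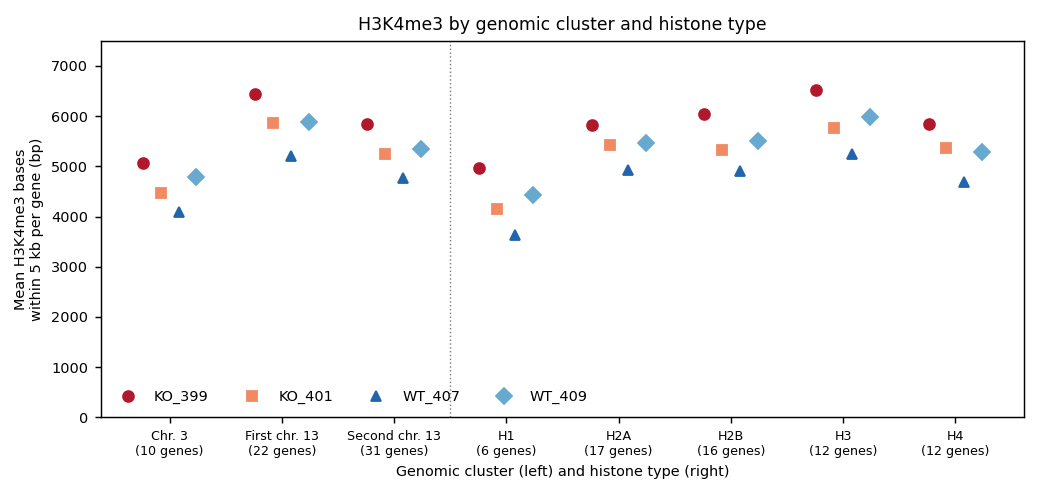
Mean H3K4me3-covered bases within 5 kb per gene (vertical axis, bp), by cluster on the left and by histone type on the right, with a point per library. KO_399 was highest in each group and WT_407 lowest, and only for H4 were both KO points above both WT points.

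The 5 genes with the largest difference among the 24 lay in 2 places. At the far end of the first chromosome 13 cluster, H4c9, H2ac11 and H2bc11 shared a peak in all 4 libraries, so their values are not separate observations. H4c9, an H4 gene, had 7854 and 7088 bases in KO, against 5784 and 6605 in WT, a difference of 1276.5. H2ac11, an H2A gene, had 6532 and 5570 bases in KO, against 4437 and 5087 in WT, a difference of 1289. Its divergent partner H2bc11, whose promoter is printed above, had 6532 and 5314 bases in KO, against 4437 and 4927 in WT, a difference of 1241. In each of the 3 the lower KO value was above the higher WT value. Without KO_399 the difference was 808 at H2ac11 and 632 at H2bc11. H2ac12 and H2bc12, next along the chromosome and under a separate peak, also lay higher in both KO libraries, by 1008 bases each.

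The other place was in the second chromosome 13 cluster. H4c2 had 6933 and 6291 bases in KO, against 5235 and 5669 in WT. H4c1 had 7762 and 6704 bases in KO, against 5768 and 6390 in WT. Neither overlapped between genotypes. Their differences were 1160.0 and 1154 bases, and that of H4c1 was 625 without KO_399. H4c1 shared a peak with H3c1 and H1f1 in all 4 libraries, and these were also among the 24. H4c2 lay under a separate peak, 1596 and 1427 bp wide in KO, against 1003 and 1245 bp in WT. The window of H4c2 also held 3 other members and took in bases of their peaks. With a window of 2 kb, the differences of H4c2 and H4c1 were 439.5 and 452 bases. With the gene span alone as the window, H4c9, H2ac11, H2bc11, H4c2 and H4c1 were covered over their whole length in each library and so differed by 0 bases. Covered length cannot show a difference on a gene that is wholly covered, and the differences given above are of the flanks.

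The genes with the most H3K4me3-covered bases in their windows were spread over types. These windows differ in length with the gene and take in peaks of neighbours, so the order is not one of single peaks. H2bc6, an H2B gene with a long annotated span, had 10107 and 9230 bases in KO, against 8272 and 9420 in WT. H3c11 had 9280 and 8795 in KO, against 7862 and 8659 in WT. H2ac10 had 8715 and 8037 in KO, against 7568 and 7720 in WT. Of these, H2bc6 overlapped between genotypes, and H3c11 and H2ac10 were higher in both KO libraries. The peak with the highest −log10 q on H2bc6 was 3829 and 3354 bp wide in KO, against 3241 and 3612 bp in WT. The peak on H3c11 was 2581 bp wide in KO_401, 2297 bp in WT_407 and 2540 bp in WT_409. In KO_399 it was 6288 bp wide and also held H1f5. H4c8, the first gene of the second chromosome 13 cluster, had 7889 and 7700 bases in KO, against 7584 and 7625 in WT, without overlap. H2bc7, under the peak with 5 members, had 7717 and 7796 in KO, against 7380 and 7739 in WT, where KO_399 lay between the WT libraries.

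The H1 genes encode linker histones, which bind the DNA between nucleosomes. H1f1 had 6166 and 5277 bases in KO, against 4765 and 5145 in WT, and H1f5, the sole H1 gene of the first chromosome 13 cluster, had 6508 and 6243 in KO, against 5396 and 6051 in WT. Both were higher in both KO libraries. H1f2 had 5936 and 4270 bases in KO, against 3720 and 4637 in WT, and H1f3 had 5445 and 4236 in KO, against 3674 and 5277 in WT. H1f4 had the least of the H1 genes known from somatic cells, with 3829 and 3354 bases in KO, against 3241 and 3612 in WT. At H1f2, H1f3 and H1f4 the genotypes overlapped, with KO_401 between the WT libraries.

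H1f6 encodes the linker histone of spermatocytes. Its window held 1899 and 1573 bases in KO, against 1045 and 1806 in WT, but none lay on the gene or over its start. The nearest peak began 1129 and 1422 bases downstream of its start in KO, against 1621 and 1286 in WT. It lay on the neighbouring H4 gene H4c3, whose window held the same bases. H1f6 and H4c3 stood at percentile 20.8 among marked genes, far below the median of the 63. H4c11, which stood alone between its neighbours, had the next lowest value, with 2650 and 2403 bases in KO, against 2064 and 2149 in WT, and did not overlap between genotypes.

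H2bc1 (chr13:23933725-23934156) and H2ac1 (chr13:23934437-23934913) encode the H2B and H2A variants of the male germ line, and they had the least H3K4me3 of the 63. They shared a single short peak in their windows, 283 and 329 bp wide in KO, against 258 and 327 bp in WT. It lay over the downstream part of the H2bc1 gene and ran past its 3′ end in each library. Measured downstream from the H2bc1 start, it lay from 153 to 435 bases in KO_399 and from 130 to 458 in KO_401. In WT it lay from 177 to 434 bases in WT_407 and from 137 to 463 in WT_409. Neither start was covered in any library, although a peak held both partners at each of the other 8 close divergent pairs. The authors' fold at its summit was 27.7 and 23.5 in KO, against 9.70 and 32.3 in WT, and its −log10 q stood at percentile 58.6 and 54.6 of the list in KO, and 45.8 and 61.0 in WT. It was thus short but of middle rank in its lists. At a fold of 10 or more it was no longer listed in WT_407, and the number of genes with the mark was then 63 in KO and a mean of 62 in WT.

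H3K27me3 was not listed at any of the 63 genes. None had a peak within 5 kb in any library, where 29.8% of all protein-coding genes did, and where 32.5% of the genes with H3K4me3 in all 4 libraries did. In all 4 libraries, 19% of genes had H3K27me3. A difference between KO and WT therefore could not be measured at these genes, while 70% of genes with H3K27me3 had fewer covered bases in both KO libraries and 0.0154% had more. A peak with a fold under 5 would not have been listed, and such weaker marks were not measured here.

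The nearest H3K27me3 peak stood well away from the chromosome 3 cluster and the second chromosome 13 cluster. From the chromosome 3 cluster it was 54.2 and 56.6 kb away in KO, against 51.6 and 29.4 kb in WT. From the second chromosome 13 cluster it was 130.6 and 56.0 kb away in KO, against 53.5 and 56.1 kb in WT. No H3K27me3 peak lay inside either cluster. The first chromosome 13 cluster held 4 and 5 H3K27me3 peaks between its members in KO, against 6 and 9 in WT, covering 4.42 and 9.66 kb in KO, against 14.4 and 19.9 kb in WT. The nearest to a member was 20.1 and 19.3 kb away in KO and 19.4 kb away in WT_407, each time from H2ac12, and 9.88 kb from H2bc13 in WT_409. Widening the window to 10 kb brought in 118 bases at H2bc13 in WT_409 and nothing else. Within that cluster, Prss16, a serine protease gene of the thymus, carried H3K27me3 with 2620 and 3698 bases in KO, against 10061 and 10138 in WT.

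Other histone genes did carry H3K27me3. The genes once named Hist3h2ba, Hist3h2a, Hist4h4 and Hist1h2br have the current symbols H2bu2, H2aw, H4f16 and H4bc24, so the rule did not take them. H2bu2, an H2B gene on chromosome 11, chr11:58948911-58949372, had H3K27me3 over its whole length in all 4 libraries. Its window held 3500 and 4983 bases of H3K27me3 in KO, against 5166 and 8233 in WT, and 2326 and 1984 bases of H3K4me3 in KO, against 2254 and 2416 in WT. It thus had both marks. Its H3K27me3 was lower in either KO library than in either WT library, where 70% of genes with H3K27me3 were. H2aw, chr11:58954685-58955192, had 1146 and 1303 bases of H3K27me3 within 5 kb in KO, against 1674 and 4579 in WT, from the same peak and none on the gene. The next histone gene, H3f4, an H3 gene, had 0 and 1264 bases in KO, against 3038 and 3635 in WT. H4f16 on chromosome 6 and H4bc24 in the first chromosome 13 cluster had none. If the 4 genes were counted with the 63, mean H3K27me3 per gene would be 81.6 bases in KO and 147 in WT (exact permutation p = 0.333, n = 2 each), all of it from H2bu2 and H2aw.

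Histone genes that are also transcribed outside S phase, mostly classed as replication-independent, were compared as a list of 10: H1f0, H1f10, H2az1, H2az2, H2ax, H2aj, H3f3a, H3f3b, Macroh2a1 and Macroh2a2. All 10 had H3K4me3 in all 4 libraries, with a mean of 4626 and 4044.5 bases in KO, against 4176.5 and 4248 in WT. Of these, 3 (H1f10, H2az1 and H2az2) were higher in both KO libraries and 2 (H2aj and Macroh2a1) lower, where 22.1% and 3.63% of all genes with the mark were. H3K27me3 was present in all 4 libraries at 3 of the 10. At H1f0, the linker histone of resting cells, it covered 3623 and 7731 bases in KO, against 7759 and 7737 in WT. At H1f10 it covered 2843 and 5422 in KO, against 4945 and 5055 in WT. At Macroh2a2, a large H2A variant, it covered 2427 and 2882 in KO, against 3452 and 4479 in WT. The genotypes did not overlap at H1f0 and Macroh2a2, although KO_401 came close to both WT libraries at H1f0. Fewer bases in both KO libraries were also seen at 70% of all genes with H3K27me3.

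**Figure D4:**
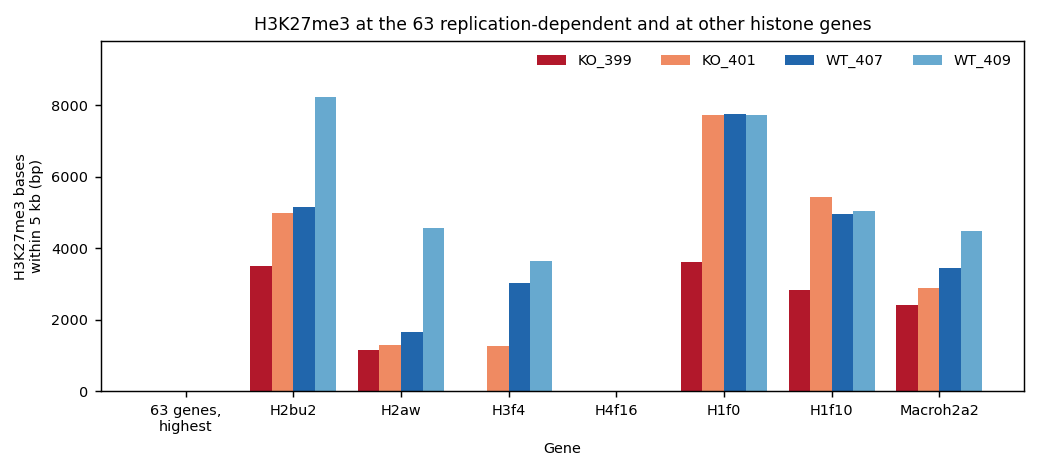
H3K27me3-covered bases within 5 kb (vertical axis, bp), with a bar per library, for the highest of the 63 replication-dependent histone genes (0 in each library) and for single genes outside that set. H2bu2 had 3500 to 8233 bases, H1f0 3623 to 7759, and H4f16 none.

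The genes that act on histone mRNAs and histones were described as lists. Of 14 genes for histone mRNA 3′ processing and the histone locus body, all had H3K4me3 in all 4 libraries, 2 were higher in both KO libraries and none lower, where 22.1% and 3.63% of all genes with the mark were. Those 2 were Cpsf3, the nuclease that cuts histone pre-mRNA, with 4535 and 4442 bases in KO, against 4298 and 4394 in WT, and Gon4l, with 5050 and 5133 in KO, against 4629 and 4286 in WT. Slbp had 4863 and 4361 bases in KO, against 4150 and 4496 in WT. Npat, the coactivator of histone transcription, had 3226 and 3091 in KO, against 3173 and 3293 in WT. At Slbp and Npat the genotypes overlapped. Sympk alone of the 14 had H3K27me3 within 5 kb in all 4 libraries, with 1372 and 1694 bases in KO, against 4382 and 3798 in WT. Of all genes with H3K27me3, 70% had fewer bases in both KO libraries.

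All 9 histone chaperone genes had H3K4me3 in all 4 libraries. Of these, 4 were higher in both KO libraries (Chaf1b, Nasp, Cabin1 and Nap1l1) and none lower, where 22.1% and 3.63% of all genes with the mark were. Nasp, a chaperone of H3 and H1, had 5680 and 5510 bases in KO, against 5377 and 5345 in WT. Of 15 S phase genes, all had the mark, 3 were higher in both KO libraries (Mcm5, Mcm7 and E2f1) and 1 was lower (Mcm6), beside the same 22.1% and 3.63%. Pcna, the sliding clamp of DNA polymerase, had 7731 and 5568 bases in KO, against 6287 and 6051 in WT, so the genotypes overlapped there.

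Of the 58 histone genes with a promoter sequence, 9 had start windows that shared runs of 75 bases with another gene's window. As 75 bases is the read length, reads there cannot be placed with certainty. They were H3c15, H2ac19, H2ac18 and H3c14 on chromosome 3, and H2bc23, H2ac23, H4c17, H4c18 and H2ac24 on chromosome 13. Without them the difference between KO and WT was 504 bases per gene and 19 genes were higher in both KO libraries. Histone genes without a promoter sequence, and bases outside these windows, were not checked for shared runs.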

How the data were processed

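H3K4me3 and H3K27me3 were measured in 8 immunoprecipitated libraries; 4 input libraries were not analysed here. Per the labels' protocols, fixation was in 1% formaldehyde, fragments measured 100 to 300 bp and the read length was 75 bp. The submitters' processing notes name Bowtie2, SAMtools and MACS2, besides FastQC, Trim Galore and deepTools, and the build mm10, all without versions. Peaks were deposited per library. For each peak the authors deposited a whole-number score, a fold (the ratio of summit signal to background), and −log10 of its p-value and of its q-value. These are the authors' values and were used only within a list.

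Read totals are unknown. The background solved from the deposited fold and −log10 p, within 0.001 at 100% of summits, was 2.65 and 1.93 reads per position in KO and 2.23 and 1.94 in WT for H3K4me3, and 3.3 and 3.67 in KO and 3.09 and 3.15 in WT for H3K27me3. Peak lists that give no depth allow no interval from counting error.

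Covered bases within 5 kb of each RefSeq gene were computed with numpy 2.4.6 and pandas 2.3.3. Genotype means were tested by exact permutation, two-sided (numpy, 6 labelings), adjusted by Benjamini-Hochberg (statsmodels 0.14.6) over 8 groups. The background was solved with scipy 1.17.1. The coverage script was tested on simulated data. Named genes were the 5 largest non-overlapping differences in each direction, the 5 highest means, all H1 genes and genes that stood outside the bulk. The genes and lists were chosen with earlier results of these data known. Other windows, thresholds, equalised lists, synonyms and left-out libraries were tried.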

Additional observations from a re-analysis of the deposited data

How the results depend on the processing

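The difference in H3K4me3 per histone gene (507 bases in the analysis as reported) stayed positive in each alternative run: 221 with a window of 2 kb, 802 with 10 kb, 15.6 with the gene span alone, 478 at a fold of 10 or more, 487 and 484 with equal numbers of peaks or equal covered length, 478 with synonyms, 952.5 per merged stretch, and 190.5 to 823 leaving out each library in turn. No p went below 0.667 in these. The count of genes higher in both KO libraries (24) was 0 with the gene span alone, and 24 to 57 with each library left out, where 23.5% to 75.1% of genes with the mark were higher. The count lower in both KO libraries (0) was 1 with synonyms, and 2 to 4 with a library left out, where 4.44% to 35.1% of genes were lower. With the gene span alone, the H1, H2A and H4 types differed by 0, as did the 5 genes with the largest differences; the H4 genes and those 5 were wholly covered in each library, and the other members of the H1 and H2A types wholly covered or, for H1f6 and H2ac1, not touched. The chromosome 3 cluster gave -13.8 to 680 bases with each library left out, the negative value without WT_407. The number of genes with H3K4me3 differed by 1 at a fold of 10 or more. For H3K27me3, a window of 10 kb gave -0.937 bases per gene and -0.5 genes. Synonyms gave -65.1 bases and 2 genes lower in both KO libraries, where 70% of genes with H3K27me3 were lower. Of the remaining alternative values, 159 that answer a comparison and 45 of single genes kept their direction or stayed at 0, though often not their size. Leaving out members with shared runs was chosen after seeing the data.

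No paired analysis was possible because the KO and WT libraries share no replicate number. The smallest p that 2 libraries per genotype allow is 0.333. A peak under a fold of 5 is not listed, and the depth of the libraries is unknown.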

Other observations

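Inside the first chromosome 13 cluster, many H3K4me3 peaks lay on no histone gene of the set: 20 and 20 in KO, against 23 and 26 in WT. Of these, 12 and 12 in KO and 11 and 12 in WT lay over a tRNA gene, and 13 and 15 in KO and 15 and 17 in WT lay within 1 kb of one. tRNA genes are transcribed by RNA polymerase III. On chromosome 3, all 5 and 5 peaks of the cluster in KO, and 6 and 5 in WT, lay on histone genes. In the second chromosome 13 cluster 5 and 5 peaks in KO, against 4 and 5 in WT, lay on none.

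H3K4me3 covered 39.6% and 36.8% of the chromosome 3 cluster in KO, against 34.0% and 38.7% in WT. In the first chromosome 13 cluster it covered 23.5% and 21.1% in KO, against 20.2% and 21.7% in WT, and in the second 17.3% and 15.1% in KO, against 13.7% and 15.9% in WT. The stretch between these clusters, chr13:22043659-23531043, with its Vmn1r genes, was covered over 2.29% and 1.91% in KO, against 2.01% and 2.05% in WT. H3K27me3 covered 18.4 and 28.9 kb of it in KO, against 38.1 and 39.9 kb in WT.

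The second chromosome 13 cluster holds 6 other coding genes. Hfe, a regulator of iron uptake, had 4221 and 3164 bases of H3K4me3 in KO, against 2886 and 3860 in WT. Trim38, Slc17a2, Slc17a3 and Slc17a4 had none in any library, and Slc17a1, a phosphate transporter gene, had 259 and 273 bases in KO, against 252 and 244 in WT. None of the 6 had H3K27me3 within 5 kb.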
